A study of Arabidopsis thaliana with 16 samples.

Results

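The genes described here are the glutathione transferase genes of Arabidopsis thaliana, chosen by name: protein-coding genes whose symbol is GSTU, GSTF, GSTZ, GSTT or GSTL followed by digits. Of 27444 protein-coding genes on the nuclear chromosomes, 47 qualified, namely 27 of the tau class (GSTU), 12 of the phi class (GSTF), 2 zeta, 3 theta and 3 lambda genes. The measurement is chromatin immunoprecipitation followed by sequencing (ChIP-seq) of ENAP1, which binds EIN2 in the nucleus, where EIN2 carries the ethylene signal. The 16 samples came from whole seedlings grown for 3 days in the dark at 24 °C, in 8 groups of 2 samples. Each of the 4 conditions had 2 ChIP samples, made with an anti-GFP antibody, and 2 inputs made without it. They were Col-0, the wild-type accession, after 4 hours in hydrocarbon-free air, Col-0 after 4 hours in the same air with 10 ppm ethylene, and the ethylene-insensitive mutant ein2 after each of these treatments. The labels describe no transgene, so the promoter that drove a GFP-tagged ENAP1 is not known here, nor whether replicates came from separate plantings, and ChIP from untagged plants is not among the samples. The air ChIP libraries carry plain numbers in the names of the lists and the ethylene ones a letter C, so any separate handling cannot be told apart from the treatment.

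Glutathione transferases join the tripeptide glutathione to reactive or foreign compounds, which marks them for transport into the vacuole, and some members act as peroxidases or as binding proteins. The plant tau and phi classes are large and detoxify herbicides and products of oxidative stress. Zeta enzymes act in tyrosine breakdown, theta enzymes reduce organic hydroperoxides, and lambda enzymes carry a cysteine in the active site and remove glutathione from flavonols. Many tau and phi genes respond to stress, auxin, salicylic acid or jasmonate, and a glutathione transferase gene of carnation is a classic example of an ethylene-responsive gene. Tau genes lie in tandem runs that arose by duplication.

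The authors deposited 1 list of peaks, called regions here, for both replicates of a condition. No spread between replicates can therefore be given, and no difference between conditions or gene classes was tested. There were 7852 regions for Col-0 air and 5137 for Col-0 ethylene, 3252 for ein2 air and 4696 for ein2 ethylene, and depth is unknown because they hold no read counts. Fold is the authors' enrichment over local background at the summit and is ranked only within its own list. A gene has a region if a peak overlaps its span with 1000 bp on each side by at least 1 bp. Each interval is a 95% Wilson interval, which covers only counting error. Positions are those of the peak files, on TAIR10.

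Most glutathione transferase genes had no ENAP1 region in any condition. A region was found at 7 of the 47 genes in Col-0 air, or 14.9% (interval 7.41 to 27.7), where 35.5% of all protein-coding genes had one. In Col-0 ethylene 5 genes had a region, or 10.6% (4.63 to 22.6), against 26.2% of all genes. In ein2 air 2 genes had one, or 4.26% (1.17 to 14.2), against 16.9%, and in ein2 ethylene 3 genes, or 6.38% (2.19 to 17.2), against 22.4%. In every condition the share was under that of all genes, but the family's genes are also short, with a median length of 1381 bp against 2078 bp over all genes. The share moved with gene length: in Col-0 air it was 17.2% in the shortest of 10 length classes and 45.7% in the longest. Among all genes in the members' own length classes, weighted as the members are, 30.6% and 22.9% were marked in Col-0 air and ethylene, and 14.0% and 19.1% in ein2 air and ethylene. In the same order this corresponds to 14.4, 10.8, 6.59 and 8.97 genes out of 47. The upper bound of the members' interval lay below the length-matched share in each list but ein2 air, by little in Col-0 ethylene (22.6% against 22.9%). It did not lie below the share of other tandem genes of the members' lengths, described further on. That share was 20.7% and 12.5% in Col-0 air and ethylene and 9.57% and 12.2% in ein2. These comparisons are no test. The interval treats members as independent, but 32 of the 47 lie in runs of neighbours, which can share a region. In all, 10 members had a region in at least 1 condition (39.7% of all genes did) and 37 had none. In all 4 conditions 0 members had one, where 12.8% of all genes did. Matched on length to the members, these background shares were 34.9% and 10.7%, or 16.4 and 5.01 genes of 47.

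**Figure D1:**
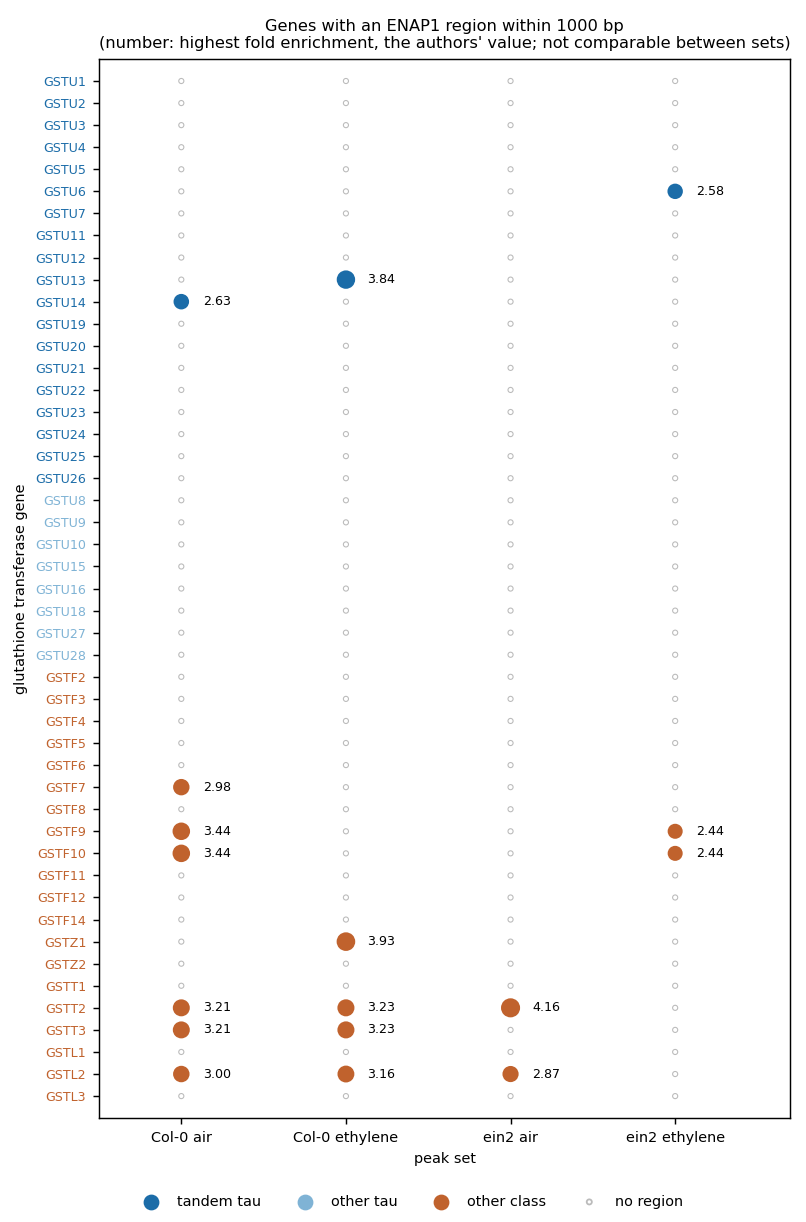
Glutathione transferase genes (rows) with an ENAP1 region within 1000 bp in each peak set (columns). A filled point marks a gene with a region, its area and the number beside it give the highest fold enrichment, and an open circle marks none. Filled points stand at 7, 5, 2 and 3 genes from left to right, and 0 of the 8 tau genes outside tandem runs has one.

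Few tau genes had a region. A tau gene was counted as tandem if another tau gene lay next to it or with 1 other protein-coding gene between them, which gave 19 genes in 5 runs. Col-0 air, Col-0 ethylene and ein2 ethylene each marked 1 of these 19 (5.26%, interval 0.935 to 24.6), and ein2 air marked 0 (upper bound 16.8%). Among genes of the same lengths the Col-0 air and ethylene shares were 27.7% and 20.9%, and those of ein2 12.4% and 17.2%. The upper bound of the interval was thus below the length-matched share in Col-0 air, and above it in the other conditions. This too is no test, as genes of a run are not independent. The 8 tau genes outside these runs, GSTU8, GSTU9, GSTU10, GSTU15, GSTU16, GSTU18, GSTU27 and GSTU28, had no region in any condition, where the length-matched share was 28.5% in Col-0 air. With only 8 genes the upper bound is 32.4%, so a share as high as that of genes of their lengths could not be told from 0 in any list. Which tau genes count as outside runs rests on the symbols and on the rule. With older symbols 21 tau genes were tandem, and also 21 with up to 5 other genes allowed between them.

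The 20 phi, zeta, theta and lambda genes lay nearer to the background. Col-0 air marked 6 of them (30%, interval 14.5 to 51.9), Col-0 ethylene 4 (20%, 8.07 to 41.6), and each ein2 list 2 (10%, 2.79 to 30.1). Genes of the same lengths gave 34.1%, 25.4%, 16.02% and 21.3%, inside the interval for each list. These classes thus held 6 of the 7 members with a region in Col-0 air, 4 of 5 in Col-0 ethylene, both in ein2 air and 2 of 3 in ein2 ethylene. The intervals of tandem tau and other classes overlap in every condition. Neighbouring members share flanks and regions, so the members are not independent.

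Some runs of the other classes held regions, at about the share of other genes, and the run of GSTL1 and GSTL3 held none. The 13 phi, zeta, theta and lambda genes that also lie in runs of their own class were marked in 5 cases by Col-0 air (38.5%, interval 17.7 to 64.5), in 3 by Col-0 ethylene, in 1 by ein2 air and in 2 by ein2 ethylene. Genes of their lengths gave 35.3%, 26.3%, 16.7% and 22.1%, or 4.59, 3.42, 2.17 and 2.87 genes of 13. Of the 7 genes of these classes outside runs, only GSTL2 had a region, in every list but ein2 ethylene. In Col-0 air that was 14.3% (interval 2.57 to 51.3), against 32.1% for genes of their lengths. Across the genome, however, genes in runs of like-named neighbours had a lower share with regions than genes of their lengths, with no test of that difference. Such runs were found by symbols that share their letters and lie at most 1 gene apart, a comparison added after seeing the data, and the members were left out. Of 956 such genes, 22.2% were marked by Col-0 air (interval 19.7 to 24.9), 13.7% by Col-0 ethylene, 8.79% by ein2 air and 14.2% by ein2 ethylene, where genes of the same lengths gave 36.5%, 26.98%, 17.5% and 23.02%. Matched on length to the tandem tau genes, these other tandem genes had a region in 19.1%, 10.96%, 8.81% and 10.6% of cases, between the tandem tau genes and the genome in each condition. These shares lay inside the interval of the tandem tau genes in each list, Col-0 air included. The sources used here do not give how reads matching several near-identical copies were placed or filtered. The lack of a region at close copies is therefore uncertain, and its part in these counts was not tested.

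**Figure D2:**
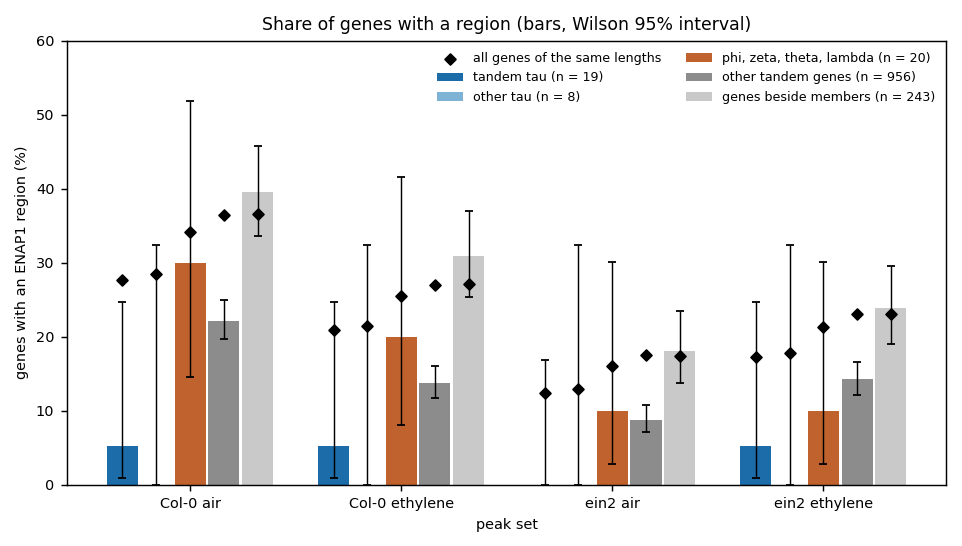
Share of genes with an ENAP1 region (bars, in percent, with Wilson 95% intervals) for tandem tau genes, other tau genes, the remaining classes, other tandem genes of the genome and the 5 genes on each side of members, in each peak set. Diamonds give the share among all genes of the same lengths; in Col-0 air the tandem tau bar is at 5.26% and its diamond at 27.7%.

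Genes around the tandem tau runs held regions at shares whose intervals include the share of all genes in each condition. Of the 50 genes that flank the 5 runs, 5 on each side, 23 were marked by Col-0 air (46%, interval 33.0 to 59.6), 16 by Col-0 ethylene, 8 by ein2 air and 11 by ein2 ethylene. Over all genes 35.5% were marked by Col-0 air and 26.2% by Col-0 ethylene, where the flanking genes had 32% (interval 20.8 to 45.8). The ein2 shares of the flanking genes, 16% and 22%, were close to the 16.9% and 22.4% of all genes. No length-matched share is given for these 50 genes. The run from GSTU23 to GSTU19, 5 genes on chromosome 1, had the most marked neighbours in Col-0 air among the 5 runs. GSTU20 was described as a partner of the jasmonate-conjugating enzyme FIN219. None of the 5 had a region in any condition, while 7 of the 10 flanking genes were marked by Col-0 air, 6 by Col-0 ethylene, 3 by ein2 air and 4 by ein2 ethylene. The run of GSTU24, GSTU25 and GSTU26, the first 2 known for detoxifying the explosive TNT, was empty too, with 5 of 10 flanking genes marked in Col-0 air and 4 in each other condition. GSTU12 and GSTU11 were empty, with 3 of 10 flanking genes marked in Col-0 air. The longest run, GSTU7 to GSTU1 on chromosome 2, has 7 tau genes with 3 other genes among them, AT2G29430, AT2G29452 and AT2G29485. In Col-0 air it held no region, while 4 of its 10 flanking genes did, all of them on the GSTU1 side. Col-0 ethylene marked 2 of the 10 and the ein2 lists 0. The 10 genes that flank GSTU13 and GSTU14 gave the same counts, 4 and 2 in Col-0 and 0 in ein2. Of the 243 genes within 5 genes of any member, 39.5% had a region in Col-0 air (33.6 to 45.8), against 36.6% for genes of their lengths.

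**Figure D3:**
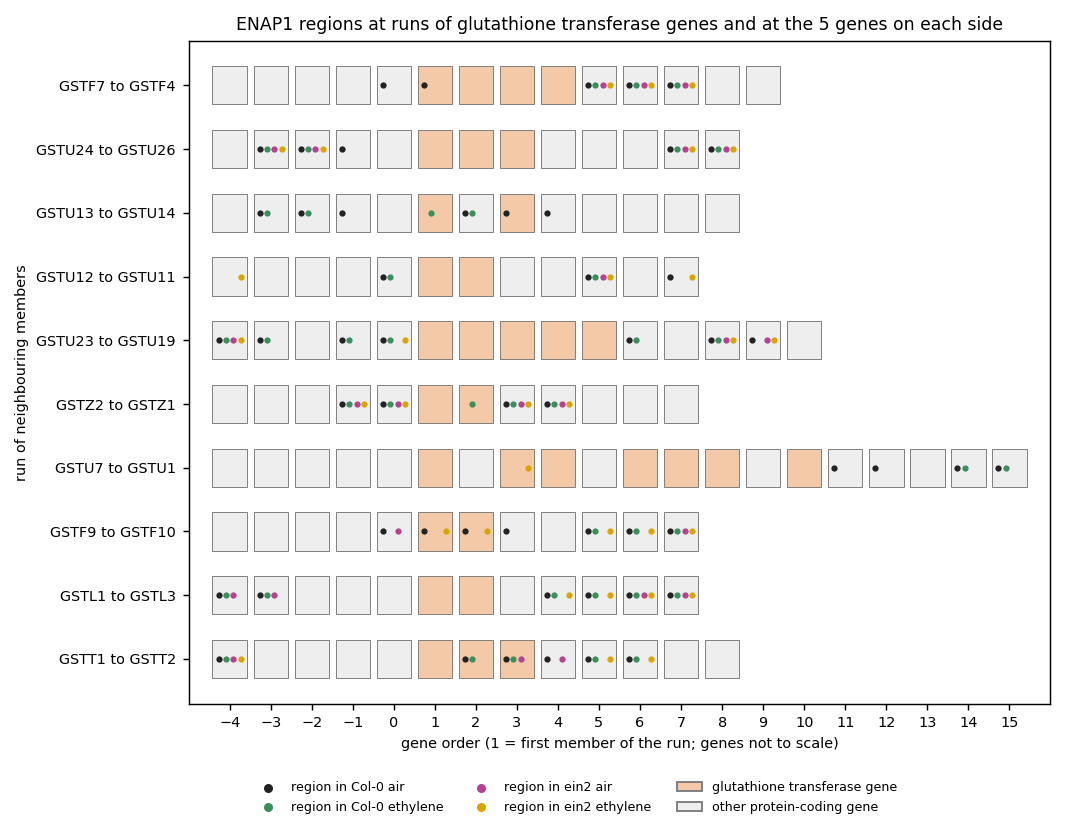
Order of genes (boxes, not to scale) along the 10 runs of neighbouring glutathione transferase genes, with the 5 genes on each side. Dots mark a region in each of the 4 peak sets; the 5 genes from GSTU23 to GSTU19 hold none, and 7 of their 10 neighbours hold one in Col-0 air.

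At the 1000 bp limit, the tau genes that did carry a region each carried it in a single condition. For GSTU13 and GSTU14 this rests on that limit. GSTU13 lay 1538 bp from a region in Col-0 air, and GSTU14 1268 bp from one in Col-0 ethylene. With flanks of 2000 bp, both genes thus had a region in both Col-0 lists. GSTU14 had one in Col-0 air, spanning 9428435 to 9428670 of chromosome 1, with its summit 360 bp inside the gene. Its fold of 2.63 was exceeded by 99.3% of the regions of that list, which puts it among the weakest kept. AT1G27135 and AT1G27150 were in reach of this region as well. GSTU13, the neighbour of GSTU14 with AT1G27135 between them, encodes an enzyme linked to indole glucosinolate metabolism. It had a region in Col-0 ethylene at 9426239 to 9426536, with a fold of 3.84, 47.2% of the list above it and AT1G27135 in reach as well. The air and ethylene regions of this pair thus lay in different genes, and in ein2 the nearest region was far away, at 22611 bp from GSTU14 in air and 22649 bp in ethylene. GSTU6 had a region in ein2 ethylene at 12621132 to 12621308 of chromosome 2, whose summit fell on the edge of the gene. Its fold was 2.58, its −log10 q of 7.50 lay near the lowest value of that list, 6.57, and no other gene was within 1000 bp. That q value is below the range of the other lists, whose lowest −log10 q values were 13.4, 10.8 and 10.9 in Col-0 air, Col-0 ethylene and ein2 air.

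Among the phi genes, Col-0 air marked 3 of 12 and ein2 ethylene 2, and the other lists 0. Genes of their lengths would give 3.68 and 2.30 of 12 in these lists, and 2.75 in Col-0 ethylene and 1.67 in ein2 air, so the counts of 3 and 2 were near the background. GSTF9 and GSTF10 are neighbours on chromosome 2, and GSTF10 is known as a partner of the receptor kinase BAK1. They shared 1 region in Col-0 air and 1 in ein2 ethylene. The Col-0 air region spanned 13141276 to 13141755 with a fold of 3.44, and the ein2 ethylene region 13141273 to 13141477 with a fold of 2.44. Their summits lay 107 and 75 bp inside GSTF10, near its edge toward GSTF9, and 1005 and 973 bp outside GSTF9. The region is therefore at GSTF10, and GSTF9 counts through its flank. In Col-0 air the neighbour SWAP70 was in reach of this region as well. The region was missing from both other lists, where the nearest one was 10465 bp from GSTF10 in Col-0 ethylene and 4090 bp in ein2 air. GSTF7 had a Col-0 air region spanning 658010 to 658262 of chromosome 1. Its fold was 2.98, but its summit lay 497 bp outside the gene and nearer to the neighbour LPA1. The other genes of that run, GSTF6, GSTF5 and GSTF4, had none. GSTF6 takes part in making the phytoalexin camalexin.

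The remaining phi genes had no region in any condition: GSTF2, GSTF3, GSTF4, GSTF5, GSTF6, GSTF8, GSTF11, GSTF12 and GSTF14, 9 in all. GSTF2, whose transcript is known to respond to ethylene and auxin, was far from any region, at 9864 bp in Col-0 air, 8833 bp in Col-0 ethylene, 4925 bp in ein2 air and 31368 bp in ein2 ethylene. Its close copy GSTF3 lay 12068 bp or more from any region. GSTF12, also called TT19, is needed to bring anthocyanin to the vacuole, and its nearest region was 1965 bp away in Col-0 ethylene and 6213 bp in Col-0 air. GSTF8, a stress-induced gene with a well-studied promoter, had a region 1636, 1608, 1654 and 1632 bp away in the 4 conditions. The same stretch was marked each time, with summits from 19554561 to 19554589 of chromosome 2, and those summits were nearest to RFI2.

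Of the 3 theta genes, 2 had a region in each Col-0 list, 1 in ein2 air and 0 in ein2 ethylene. Genes of their lengths would give 1.20, 0.853, 0.579 and 0.759 of 3, and the interval for 2 of 3 runs from 20.8% to 93.9%. GSTT1, GSTT3 and GSTT2 stand in this order on chromosome 5. A region at 16496970 to 16497241 in Col-0 air (fold 3.21) recurred at 16496999 to 16497168 in Col-0 ethylene (fold 3.23), with summits 74 and 58 bp inside GSTT3. It also counts for GSTT2 through the flank, 870 and 854 bp away. A second region lay at the other end of GSTT2, at 16500766 to 16501086 in Col-0 air (fold 2.84) and at 16500753 to 16501046 in ein2 air (fold 4.16). Its summits lay 24 and 52 bp outside GSTT2, the nearest gene, and AT5G41250 was in reach as well. The ein2 air region was the highest-ranking of all member regions, with 33.7% of its list above it, whereas 97.0% of the Col-0 air list lay above its counterpart. GSTT1 had none, and in ein2 ethylene the whole run was empty, with the nearest region 6671 bp from GSTT2.

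GSTL2, a lambda gene whose product is sent to plastids, had a region in 3 of the 4 lists. It lay at the edge of the gene on chromosome 3, spanning 20400114 to 20400484 in Col-0 air. The Col-0 ethylene region spanned 20400131 to 20400472 and the ein2 air region 20400167 to 20400478. The folds were 3.00, 3.16 and 2.87, and 93.6%, 76.0% and 84.3% of the respective lists lay above. The summits were 7, 64 and 26 bp outside the gene, and the neighbour AT3G55050 was in reach as well. In ein2 ethylene the nearest region was 2082 bp away. The other lambda genes, GSTL1 and GSTL3, had none, with the nearest region 6616 bp from GSTL3 in Col-0 air, while 6 of the 10 genes that flank this pair had a region there.

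GSTZ1, the maleylacetoacetate isomerase of tyrosine breakdown, was counted in Col-0 ethylene alone, and this rests on the 1000 bp limit. The Col-0 ethylene region, at 631981 to 632824 of chromosome 2, began 816 bp from the gene and had its summit 1561 bp away, nearest to AT2G02410. A region with nearly the same summit was present in each other condition, at 632730 in Col-0 air, 632719 in ein2 air and 632725 in ein2 ethylene, but began 1055, 1389 and 1428 bp from GSTZ1. What differed was the edge of the region, not its summit. GSTZ2 had none. Just outside the limit lay also GSTU23, at 1117 bp in Col-0 air, 1276 bp in Col-0 ethylene and 1330 bp in ein2 ethylene, and GSTU1, at 1517 bp in Col-0 air. Just inside it lay GSTF9, at 884 bp in Col-0 air, and GSTT2, at 791 bp in Col-0 ethylene.

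The member regions of Col-0 air were weak within their list. There were 14 in all, 6 of Col-0 air, 4 of Col-0 ethylene and 2 of each ein2 list, and 11 of the 14 were below the median fold of their own list. These were 6 of 6 in Col-0 air, 2 of 4 in Col-0 ethylene, 1 of 2 in ein2 air and both in ein2 ethylene. In Col-0 air the median fold of member regions was 2.99 (range 2.63 to 3.44) where that of the list was 4.34, and between 80.8% and 99.3% of the list lay above each of them. In Col-0 ethylene the medians were 3.54 for members and 3.76 for the list, in ein2 air 3.52 and 3.72, and in ein2 ethylene 2.51 and 2.72. The summit lay inside a member for 7 of the 14 and within 300 bp of an edge of a member for 10. Over all regions of a list, 71.3% to 75.7% of summits lay within 300 bp of a gene edge. Those shares are not limited to edges of members or to regions in their reach, so they are no background for 10 of 14. The 14 are not all separate places, as the regions at GSTL2, GSTT3, GSTF10 and the far end of GSTT2 recur between lists. For 3 of the 14 the gene nearest to the summit was not a member, namely LPA1, AT2G02410 and AT3G55050.

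**Figure D4:**
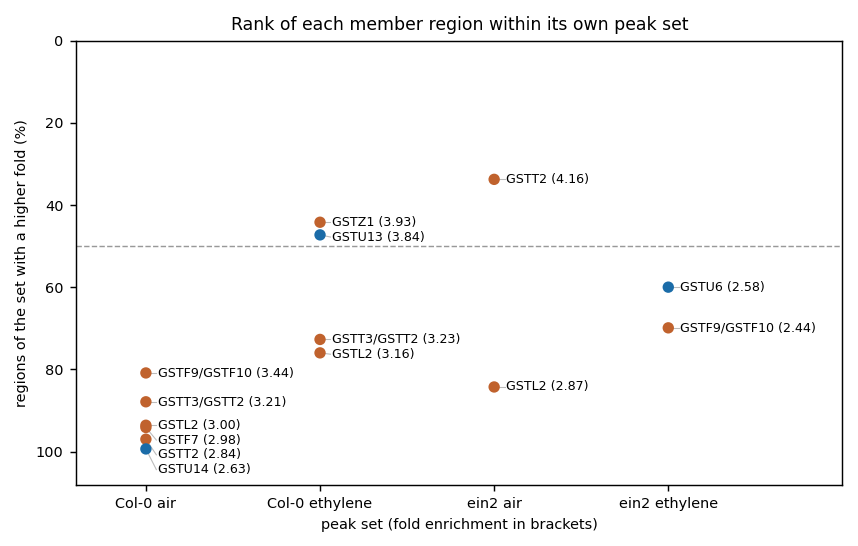
Rank of the 14 regions counted for glutathione transferase genes within their own peak set, as the percentage of that set's regions with a higher fold (0 at the top is the strongest), with the fold in brackets. Blue points are tau genes and orange points other classes; all 6 Col-0 air regions have 80.8% or more of their set above them.

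Tau genes, like other tandem genes, lay farther from the nearest region than the typical gene. The distances were not matched on gene length, and tandem tau genes had a median length of 1270 bp against 2078 bp over all genes. Genes of a run can also share their nearest region, as those from GSTU7 to GSTU1 did in Col-0 air. For tandem tau genes the median distance was 5362 bp for Col-0 air and 8600 bp for Col-0 ethylene, 16765 bp for ein2 air and 9234 bp for ein2 ethylene. For the phi, zeta, theta and lambda genes the medians were 2436.5, 3230, 5132.5 and 6650 bp. Over all protein-coding genes they were 2873, 5058.5, 9315.5 and 6161.5 bp, below the tandem tau medians in each condition. Other tandem genes of the genome had medians of 4913.5, 8310, 12082 and 8593.5 bp, and the 8 tau genes outside runs 8163.5, 11871.5, 20027 and 11713 bp, so long distances were not particular to tandem tau genes. The other classes were nearer than the typical gene in 3 conditions and farther in ein2 ethylene. The tau genes GSTU15 and GSTU16 were isolated, at 36655 and 42923 bp in Col-0 air, and GSTU27 was 241380 bp from any region in ein2 air.

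**Figure D5:**
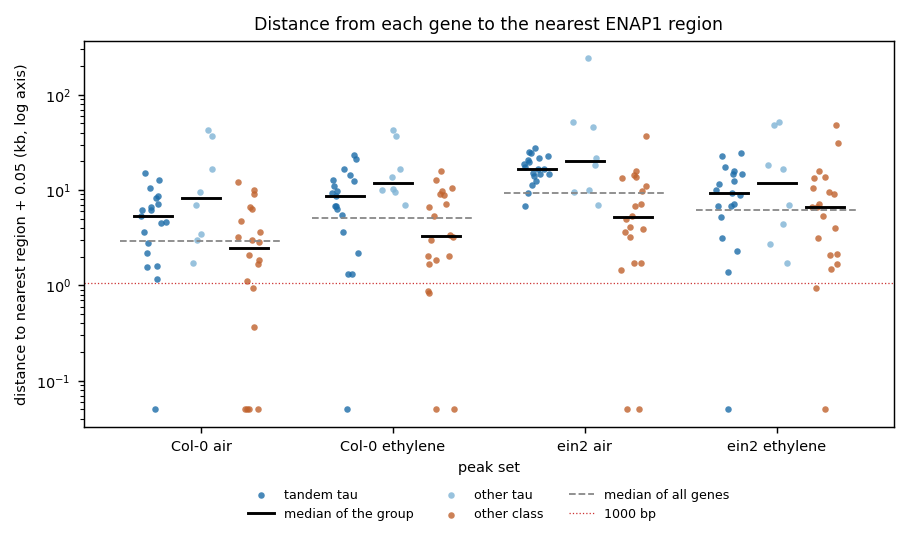
Distance from each glutathione transferase gene to the nearest ENAP1 region in each peak set, in kb on a log axis with a small constant added so that genes overlapped by a region (distance 0) can be drawn. Black bars are group medians, dashed lines the median of all genes; the tandem tau median is 5362 bp in Col-0 air, above 2873 bp for all genes.

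Ethylene was compared with air to ask where ENAP1 occupancy differs after the hormone. In Col-0, GSTF7, GSTF9, GSTF10 and GSTU14 had a region in air and not in ethylene, a pattern of 11.8% of all genes, and GSTL2, GSTT2 and GSTT3 had one in both (23.7% of all genes). The reverse, ethylene without air, held for GSTU13 and GSTZ1, where 2.53% of all genes did. At GSTU13 the nearest air region was that of GSTU14, 1538 bp away, and at GSTZ1 the edge shifted as described above. GSTU14 in turn lay 1268 bp from the ethylene region of GSTU13. In ein2, GSTL2 and GSTT2 had a region in air and not in ethylene (2.55% of all genes), and GSTF9, GSTF10 and GSTU6 the reverse (8.09%). Members with one in both numbered 0, where 14.3% of all genes had one. That 0 rests on the 1000 bp limit. With flanks of 2000 bp, ein2 air had 5 members, and 2 of these were not in ein2 ethylene. The lists share no samples within these comparisons, but differ in size and in their lowest −log10 q. With each list limited to its 3252 regions of lowest p, the members in Col-0 air and not ethylene went from 4 to 0 while the reverse stayed at 2, and those in ein2 ethylene and not air went from 3 to 0.

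Between the lines, 5 members were marked in Col-0 air but not ein2 air (18.8% of all genes), namely GSTF7, GSTF9, GSTF10, GSTT3 and GSTU14. GSTL2 and GSTT2 had one in both lines in air (16.7% of all genes), and 0 in ein2 air alone of this pair (0.204%). At the equal list size the direction turned, with 0 members in Col-0 air and not ein2 air and 2 in ein2 air and not Col-0 air. In ethylene, GSTL2, GSTT2, GSTT3, GSTU13 and GSTZ1 had a region in Col-0 and not in ein2 (9.84%), GSTF9, GSTF10 and GSTU6 in ein2 and not in Col-0 (6.03%), and 0 in both, where 16.4% of all genes did. The 5 members marked in Col-0 under ethylene and the 3 marked in ein2 under ethylene thus had no gene in common at the 1000 bp limit. With flanks of 2000 bp, Col-0 ethylene had 11 members, and 8 of these were not in ein2 ethylene. GSTZ1, GSTU23 and GSTF8 lay within 2000 bp of a region in both ethylene lists. The lists hold no signal under their limits, so a weaker signal and no signal at a gene cannot be told apart.

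Genes that make, recycle and transport glutathione, regulators of detoxification and 8 glutathione peroxidase-like genes had, as 1 list, shares close to those of other genes. Of these 29 genes, Col-0 air marked 12 (41.4%, interval 25.5 to 59.3), Col-0 ethylene 7 (24.1%), and the ein2 lists 6 (20.7%, air) and 9 (31.0%, ethylene). Genes of the same lengths gave 40.6%, 29.7%, 19.4% and 25.8%. GGP1, a peptidase of glutathione and glutathione-conjugate breakdown, had a region in all 4 conditions. The Col-0 air region, at 14920198 to 14920587 of chromosome 4, had a fold of 11.5, which only 0.764% of the list exceeded, and in ein2 ethylene 0.958% of the list lay above it. In Col-0 ethylene 14.1% of the list and in ein2 air 16.9% lay above it. TGA2 and TGA5 (AHBP-1B and OBF5 in the gene table), neighbouring genes for transcription factors that bind the as-1 elements of many glutathione transferase promoters, shared a region in all 4 conditions, with folds of 4.12, 2.86, 3.91 and 2.92 in the order used above. TGA6 and SCL14, which encode their partners in the detoxification response, had none.

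In synthesis, GSH1, the first enzyme of glutathione production, had regions in Col-0 air and in no other list, the stronger with a fold of 3.92, and GSH2, the second enzyme, had none. Of the genes for glutathione breakdown, OXP1 was marked in Col-0 air and ein2 ethylene, GGT2 in both Col-0 lists, and GGT1 and GGT4 had none. The vacuolar transporter gene ABCC2, which carries glutathione conjugates, had a region in Col-0 air (fold 5.30) and ein2 ethylene (3.33). ABCC3 had one in Col-0 air, Col-0 ethylene and ein2 air, and ABCC1 none. The phytochelatin synthase gene PCS1 (CAD1 in the gene table) had one in both air lists, at different places, and PCS2 none. Of the reducing enzymes, the glutathione reductase gene GR1 had a region in ein2 ethylene and GR2 none, and the dehydroascorbate reductase gene DHAR1 had one in Col-0 air while DHAR2 and DHAR3 had none. Among the peroxidase-like genes, GPX2 had a region in Col-0 air, Col-0 ethylene and ein2 ethylene, GPX6 in both Col-0 lists, GPX7 in both ein2 lists and GPX5 in ein2 ethylene.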

How the data were processed

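The submitters' processing notes name BWA, MACS2 2.1.0.20150603 and the build TAIR10. Per the labels, each condition has 1 peak list for both ChIP replicates. The sources used here do not give how replicates were combined, reads with several matches handled or peaks selected. The deposited files hold, per peak, start, end, summit, the MACS2 score, fold enrichment (a ratio by the authors), and −log10 p and −log10 q as the authors' peak caller wrote them. Of 6 files, 2 (8 value columns) are named in no label and were not used here.

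The gene table, from RefSeq, is of assembly TAIR10.1, which differs in name from the build of the files, so none of its coordinates is printed. As a check, 71.3% to 75.7% of summits lay within 300 bp of a gene edge, against 28.3% or less after shifts of 2000 or 5000 bp. The table gives neither strand nor exons, and no sequence was used here, so the planned positions from gene starts and the promoter motifs were not run. A tetrachlorohydroquinone dehalogenase gene planned for the pathway list was left out because its symbol did not match.

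Shares were computed over all 27444 protein-coding genes and averaged over the members' own classes among 10 classes of gene length. No test was run, since 1 list per condition gives no replicates. Genes were named if they were in all 4 lists, in 1 list alone or among the 10 of highest fold, with empty members named by class. Other members named were chosen after their values were seen. The members and lists were chosen with earlier results of these data known. Overlap counting was tested on simulated data. Python 3.11.15, pandas 2.3.3 and scipy 1.17.1 were used. Alternatives were other q minima, equal list sizes, other overlap rules and flanks, and assignment to the nearest gene. Older symbols, other tandem rules, other length classes and no length matching were also used.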

Additional observations from a re-analysis of the deposited data

How the results depend on the processing

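The difference in share from the background, length-matched except where stated, was negative under every alternative run. Where a count was 0 the sign could only be negative. This held for tandem tau genes in ein2 air in every setting, and for all members in Col-0 air at equal list size. For all members the difference in Col-0 air was -15.7 percentage points, and between -20.6 and -5.80 under the alternatives; for tandem tau genes it was -22.4, and between -30.3 and -11.7. In Col-0 ethylene it was between -15.6 and -1.87 for all members. The ends -20.6, -30.3 and -15.6 came from a background of all genes without length matching. With length matching kept, the differences farthest from 0 were -16.4, -28.0 and -13.2 in the same order. For all members in Col-0 air and ethylene, the difference nearest to 0 came from the background of other tandem genes, added after seeing the data. For tandem tau genes in Col-0 air, -11.7 came from giving each region to its nearest gene, and the background of other tandem genes gave -13.8.

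Counts moved with the limits. With the highest of the lowest −log10 q values (13.4) in every list, 1 member, of the other classes, was marked by ein2 air and 0 by ein2 ethylene, tandem tau and other classes alike. Members in ein2 air and not ethylene were then 1, the reverse 0, and in ein2 ethylene and not Col-0 ethylene 0. With each list cut to its 3252 lowest p-values, Col-0 air had 0 members in all groups, Col-0 ethylene 2, of which 1 of the other classes, and ein2 ethylene 0. Col-0 air alone then had 0 against either list, ein2 air and not Col-0 air 2, Col-0 ethylene and not ein2 ethylene 2, and ein2 ethylene alone 0 against either list. The order of the lists by count thus depends on list size, as Col-0 air went from 7 to 0.

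With flanks of 2000 bp the members numbered 14, 11, 5 and 7 in the 4 lists, tandem tau 4, 3, 0 and 2, and the other classes 8, 5 and 4 in the last 3 lists. In Col-0 and not ein2 there were then 9 in air and 8 in ethylene. GSTF8 and GSTZ1 then had a region in reach in all 4 lists. With no flanks or 300 bp, Col-0 ethylene had 3 members, 2 of the other classes, and ein2 ethylene 1 of these. Then 1 was in Col-0 ethylene and not air, as also with most of the peak or its summit required inside, and 3 in Col-0 and not ein2 in each treatment. With each region given to its nearest gene, Col-0 ethylene had 2 members, 1 of the other classes, ein2 ethylene 1 of these, 1 was in Col-0 ethylene and not air, 3 in Col-0 and not ein2 in air, and 2 in ethylene. With no gene allowed between tandem tau genes, Col-0 air and Col-0 ethylene had 0. A −log10 q of at least 5 changed nothing, since no list went lower. The 49 members found with older symbols, ERD9 and ATGSTF13 added, left these counts close to those reported. Depth is unknown, so what it limits cannot be stated. No paired analysis was possible because both replicates of a condition share 1 peak list, which also left no replicate to leave out.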
